A study of Mus musculus with 24 samples.

Results

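Sciatic nerve of S63del mice was compared between postnatal day 5 (P5) and 4 months of age, with 2 arrays at each age, 4 of the 24 arrays of the series. Arrays were put in groups by their labels alone. The arrays to compare and the gene lists were chosen with earlier results of these data known. All 12393 genes with a named probe set were tested. S63del mice model Charcot-Marie-Tooth neuropathy type 1B and carry, beside the normal gene, a transgene for myelin protein zero (P0) that lacks a serine and is driven by the regulatory sequence of the P0 gene, so the mutant protein is made in myelinating Schwann cells. The other groups used here were WT nerve at both ages (2 arrays each), S63del/CHOP null nerve at both ages (2 arrays each), which carries the mutant and lacks CHOP, the product of Ddit3, and S63del and WT nerve at P28 (2 arrays each). CHOP null nerve without the mutant was measured at P5, P28 and 4 months, and S63del/CHOP null nerve also at P28 (2 arrays each). These arrays entered the fit only as part of its estimate of spread. Those of CHOP null nerve at 4 months also served in the check of labels below. Nerves were freed of the perineurial sheath, frozen and powdered before RNA was extracted, per the labels' protocols, and each array is labelled as a biological replicate. The labels do not say whether an array holds 1 animal or a pool.

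Mouse Schwann cells leave the cell cycle in the days after birth, sort axons and build myelin at a rate that peaks in the following weeks and then declines to upkeep. P0 is the main protein of peripheral myelin and passes through the endoplasmic reticulum (ER). The mutant form is retained there and sets off the unfolded protein response, in which the sensors PERK, ATF6 and IRE1 raise chaperones and degradation factors, slow translation and induce the transcription factors ATF4 and CHOP. The long interval between P5 and 4 months therefore covers both the maturation of the nerve and the course of this stress in mutant tissue.

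All values below are log2 expression as deposited, and changes are log2 differences of 4 months minus P5 with the standard error (SE) of the limma fit. A gene is said to have risen or fallen where its Benjamini-Hochberg adjusted p over all 12393 genes was under 0.05. The exact permutation test of 2 arrays against 2 cannot go below p = 0.333, so no single-gene permutation test is given. In RNA from a mixture of cells, a lower share of a cell type and less RNA per cell of that type cannot be told apart. Nor can age be told apart from any difference in how arrays of different ages were hybridised or scaled.

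Whether the arrays lay with their labels was checked at 4 months on 53 genes that set S63del apart from WT in the same direction, without overlap and by over 0.8 on the log2 scale, at both P5 and P28. Their mean level, signed by the direction of the mutant effect, was 2.41 and 2.43 on the S63del arrays and 2.0045 and 1.92 on the WT arrays. The array labelled CHOP null replicate 1 stood at 2.33 and replicate 2 at 1.84, while the array labelled S63del/CHOP null replicate 1 stood at 1.71 and replicate 2 at 2.37. The S63del and WT arrays thus lay with their labels, and the 2 arrays with number 1 of the other 4-month genotypes lay against theirs. Results of the S63del/CHOP null course are given with and without both, as are counts that move without them.

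**Figure D1:**
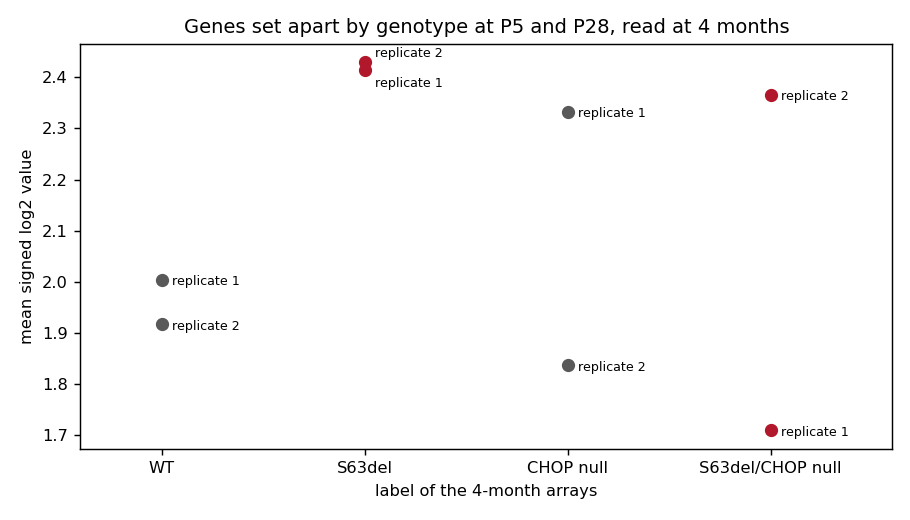
Mean signed log2 value of the 53 genes (vertical axis) on each 4-month array by its label (horizontal axis), with genotypes that should carry the mutant in red and the others in grey. The S63del arrays lie at 2.41 and 2.43 and the WT arrays at 2.0045 and 1.92, while the arrays labelled CHOP null replicate 1 (2.33) and S63del/CHOP null replicate 1 (1.71) lie with the other kind.

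Markers of Schwann cells were present at both ages. Sox10, their lineage factor, read 10.57 and 10.44 at P5 and 11.05 and 11.10 at 4 months in S63del nerve. Erbb3, the receptor for axonal neuregulin, went from 11.26 and 11.13 to 10.53 and 10.56. Medians of the P5 and 4-month arrays lay between 6.97 and 7.03 with interquartile ranges of 3.77 to 3.90, and those of P28 arrays between 6.84 and 6.87 with ranges of 2.90 to 3.52. P28 values are therefore shown as a middle point and carry that difference in scale.

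From P5 to 4 months 2811 genes rose and 2126 fell in S63del nerve, together 4937 or 39.8% of the genes tested (22.7% higher, 17.2% lower). Changes of over 2-fold made up 1067 of the rises (8.61%) and 621 of the falls (5.01%). Counts within the gene lists below are to be read beside the 22.7% of all genes that rose and the 17.2% that fell. The median change over all genes was 0.05. The arrays of the 2 ages did not overlap for 9376 genes, which is 75.7% of those tested, so a lack of overlap on its own is the usual state here. WT nerve, measured on other arrays, had 2634 rises (21.3%) and 1923 falls (15.5%), together 36.8% of genes. Of the S63del calls 79.4% were also called in WT in the same direction, and of the WT calls 86.0% were called so in S63del, 3921 genes in all.

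**Figure D2:**
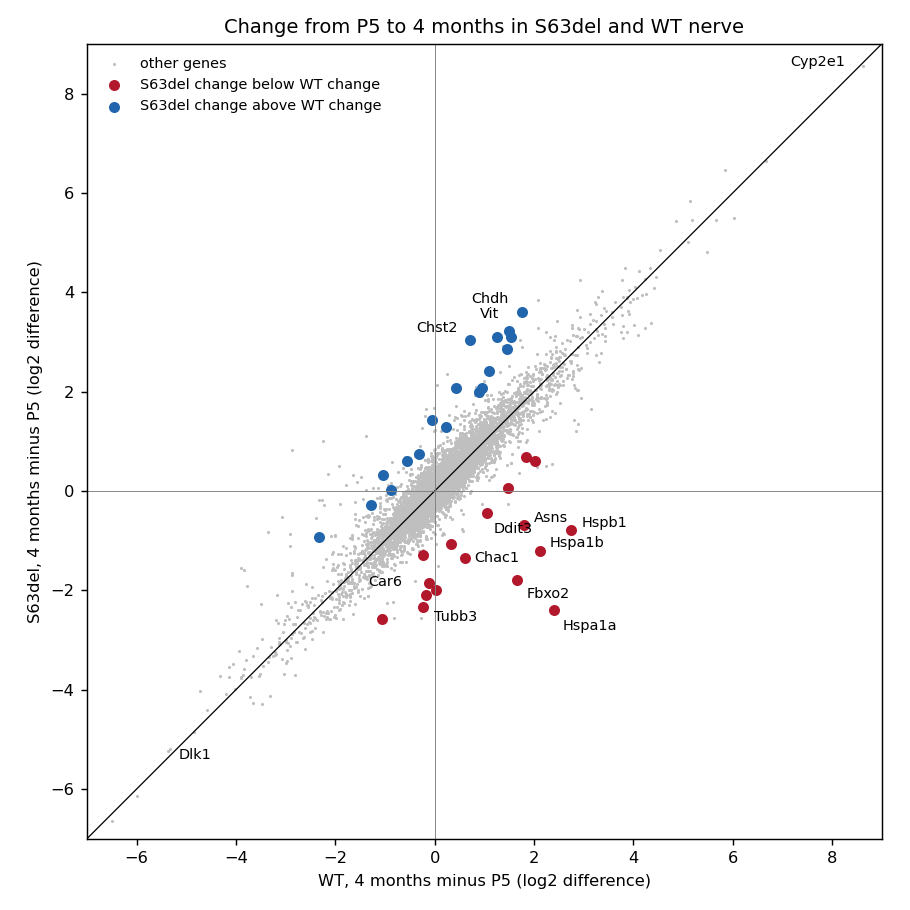
Change from P5 to 4 months in WT nerve (horizontal axis, log2 difference) against that in S63del nerve (vertical axis), 1 point per gene, with the line of equal change. The 35 coloured genes differed between the courses at an adjusted p under 0.05: 17 lie below the line, led by Hspa1a, and 18 above it, led by Chst2.

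The change with age differed between S63del and WT for 35 genes (0.282% of those tested), 17 with a lower (0.137%) and 18 with a higher change (0.145%) in S63del. An unadjusted p under 0.05 was reached by 608 genes (4.91%). Of the 17 genes with the lower change, 13 fell in S63del nerve and 10 rose in WT nerve. Of the 18 with the higher change, 14 rose in S63del. Passing with the lower change were 3 of 22 heat shock genes, 1 of 29 ER chaperones, 2 of 29 degradation genes, 2 of 21 UPR factors, 2 of 31 ATF4 targets and 2 of 15 genes linked to CHOP, Chac1 being in both of the last lists. Passing with the higher change were 2 of 19 cholesterol genes and 0 of 26 fatty acid and sphingolipid genes. The count of 35 moved by over 1.5 times when any of 7 single arrays was left out: it was 18 without S63del P5 replicate 2, 23 and 16 without S63del 4 months replicate 1 and 2, 13 and 20 without WT P5 replicate 1 and 2, and 15 and 60 without WT 4 months replicate 1 and 2. It was 56 without the 2 arrays that lay against their labels, and 34 of the 35 genes were among those. The course and its difference from WT share the S63del arrays, so the values of each are given side by side.

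Heat shock proteins of the cytosol are chaperones that bind unfolded protein outside the ER, and the 2 lowest differences of courses among called genes were those of Hspa1a and Hspb1. Hspa1a, an inducible HSP70, read 11.21 and 11.10 at P5 and 8.90 and 8.63 at 4 months in S63del nerve. In WT nerve it read 5.96 and 5.93 at P5 and 8.60 and 8.10 at 4 months. Its level thus fell 5.25-fold in the mutant (log2 difference -2.39 ± 0.30, adjusted p = 5.48e-06) and rose in WT by 2.40, so that the genotypes lay far apart at P5 and close at 4 months. The difference of the courses was -4.80 ± 0.43 (adjusted p = 9.49e-06).

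Hspa1b, its near-identical neighbour, went from 11.98 and 11.94 to 10.94 and 10.58 in S63del and from 8.43 and 8.39 to 10.64 and 10.45 in WT, a difference of courses of -3.33 ± 0.41 (adjusted p = 0.00056). Probe sets may not separate these copies, and 247 of the 250 bases before their start sites are identical in RefSeq (GRCm38.p6). Hspb1, the small heat shock protein HSP27, read 12.79 and 12.58 at P5 and 11.97 and 11.81 at 4 months in S63del. In WT it climbed from 9.12 and 9.28 to 12.06 and 11.82. The mutant thus held at P5 a level of Hspb1 above the one that WT nerve reached at 4 months.

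Of the 22 heat shock genes measured 7 rose and 10 fell in S63del nerve, with a median of -0.20 beside 0.05 for all genes, and 10 rose and 0 fell in WT, with a median of 0.38. The S63del change lay below the WT change in 17 of 22, beside 6056 of 12393 genes in all. Hspd1, the mitochondrial HSP60, fell from 12.12 and 12.03 to 11.19 and 11.04 in S63del. Its partner Hspe1 fell by 0.86 and Hsph1, an exchange factor of HSP70, by 0.77. Hspa2, by contrast, rose by 1.21, Dnaja4 by 1.06 and Bag3, a co-chaperone of selective autophagy, by 0.85. Cryab, a small heat shock protein that is abundant in myelinated nerve, did not pass (0.11 ± 0.11).

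**Figure D3:**
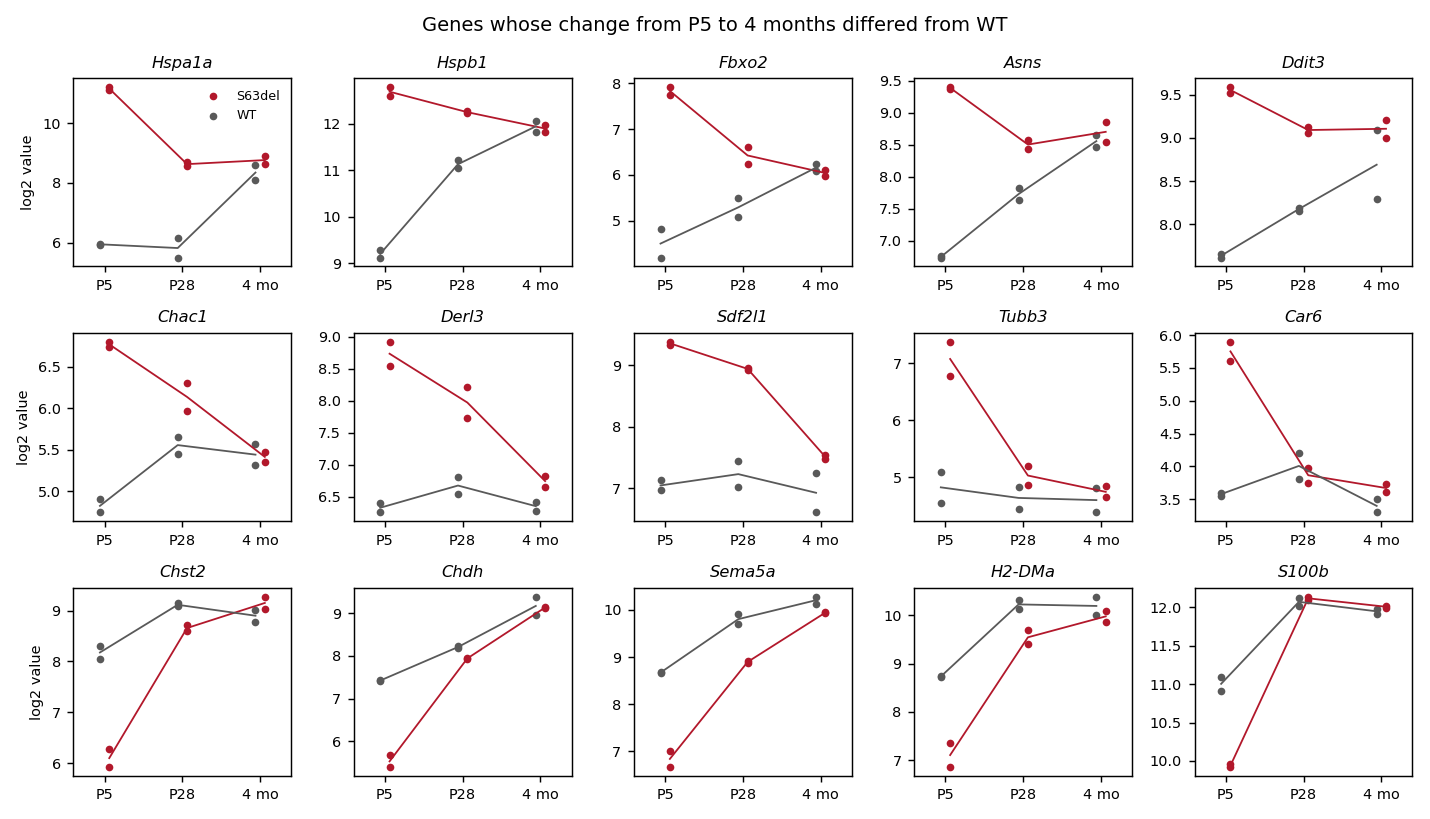
Log2 value on each array (points) and group mean (lines) at P5, P28 and 4 months in S63del (red) and WT (grey) nerve for 15 genes whose change from P5 to 4 months differed between the genotypes. Hspa1a, Hspb1, Fbxo2 and Asns fall in S63del while they climb in WT, Derl3, Sdf2l1, Tubb3 and Car6 fall in S63del toward a WT level that is low at all ages, and Chst2 to S100b start low in S63del and climb to the WT level.

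Most ER chaperones and folding enzymes fell as the S63del nerve aged: of 29 measured 18 fell and 3 rose, with a median of -0.52, beside 12 falls, 5 rises and a median of -0.16 in WT. Sdf2l1, a subunit of ER chaperone complexes, went from 9.38 and 9.33 to 7.55 and 7.47, a 3.6-fold fall (-1.85 ± 0.20, adjusted p = 9.95e-07). In WT it read 7.13 and 6.97 at P5 and 7.25 and 6.61 at 4 months, and the difference of the courses was -1.73 (adjusted p = 0.00868). Both 4-month S63del arrays still lay above both 4-month WT arrays.

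Further falls in S63del were Manf (-1.24), a secreted ER stress protein, Creld2 (-1.27), the disulphide isomerases Pdia6 (-1.196) and Pdia4 (-1.07), and Uggt1 (-1.10), which marks misfolded glycoproteins for another round of folding. Ppic, a prolyl isomerase, fell by 1.42 in S63del, beside a WT change of -1.61, the smallest p of the list. Hspa5, the master chaperone BiP, read 13.29 and 13.25 at P5 and 12.86 and 12.64 at 4 months. Its change of -0.52 ± 0.21 did not pass (adjusted p = 0.0633). Ero1a, an oxidase of disulphide formation that also answers to low oxygen, rose by 0.62.

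The factors of ER-associated degradation, which move misfolded chains back to the cytosol for the proteasome, and of translocation into the ER gave 13 falls and 4 rises among 29, with a median of -0.26. The WT course had 9 falls, 7 rises and a median close to 0 (-0.0008). Derl3, a derlin of the retrotranslocation channel, went from 8.93 and 8.55 to 6.83 and 6.66 in S63del (-1.99 ± 0.24), while WT held 6.25 and 6.40 at P5 and 6.43 and 6.28 at 4 months. The mutant excess was thus large at P5 and small at 4 months (difference of courses -2.02, adjusted p = 0.00927).

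Fbxo2, the F-box protein that picks out N-glycans on misfolded proteins, read 7.92 and 7.75 at P5 and 5.97 and 6.11 at 4 months in S63del, a 3.47-fold fall. In WT it rose from 4.81 and 4.19 to 6.08 and 6.24, and the courses differed by -3.46 ± 0.25 (adjusted p = 8.49e-07). Falls were also seen for Ssr2 (-1.75), Sec11c (-1.01), Sec61a1 (-0.96) and Vcp (-0.84), the ATPase that extracts substrates. Herpud1, Herpud2, Sec63 and Fbxo6 rose, by 0.60 to 0.77. Edem1 (0.12), Sel1l (0.10) and Os9 (0.02) did not pass.

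Promoters of these genes are shown because falls in the 2 lists included known targets of ATF6. The ER stress element was searched as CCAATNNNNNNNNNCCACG on both strands in RefSeq promoters (GRCm38.p6, 250 bases before to 50 after the start site), where 37 of 27025 genes (0.137%) hold it. Of the 24 ER chaperone genes with a promoter listed there, 8 held it, and 3 of those 8 fell, beside 11 of the 16 others. In the degradation list the 2 holders of 24, Derl3 and Syvn1, both fell, beside 8 of the 22 others. The capitals below mark the match, given 5′ to 3′ on the gene's strand, and in Derl3 and Creld2 it lies on the opposite strand.
Derl3 (chr10:75893222-75893280, + strand): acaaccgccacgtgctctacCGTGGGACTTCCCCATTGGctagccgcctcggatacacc
Creld2 (chr15:88819500-88819558, + strand): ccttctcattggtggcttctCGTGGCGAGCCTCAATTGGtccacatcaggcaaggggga
Pdia6 (chr12:17266471-17266529, + strand): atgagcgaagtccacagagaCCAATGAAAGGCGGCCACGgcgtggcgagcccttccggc
Hspa5 (chr2:34772005-34772063, + strand): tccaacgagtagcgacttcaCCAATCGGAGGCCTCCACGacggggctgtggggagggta
Derl3, Creld2 and Pdia6 fell and Hspa5 did not pass, so genes that share these letters did not share the call.

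The sensors and transcription factors of the response changed in both directions: of 21 measured 8 rose and 5 fell, with a median of 0.20 in both genotypes. Atf4 fell from 10.85 and 10.81 to 10.34 and 10.41 (-0.46 ± 0.12, adjusted p = 0.00422), beside -0.43 in WT. Atf3, a stress-induced member of the same family, fell from 9.24 and 9.08 to 8.01 and 8.20 (-1.06 ± 0.20), beside a WT change of 0.33 that did not pass. Xbp1, the substrate of IRE1, read 11.83 and 11.78 at P5 and 11.84 and 11.68 at 4 months. These arrays do not separate its spliced form.

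Ddit3, which encodes CHOP, read 9.59 and 9.52 at P5 and 9.21 and 9.002 at 4 months in S63del. Its change of -0.45 ± 0.19 did not pass (adjusted p = 0.0794). In WT it rose from 7.66 and 7.61 to 9.09 and 8.29, with 1 of the 4-month arrays inside the S63del range. The difference of courses was -1.50 ± 0.27 (adjusted p = 0.0197). Ppp1r15a (GADD34), which restarts translation, fell by 0.63 in S63del and by 0.74 in WT. Rises were largest for Nfe2l1 (1.39), Cebpg (1.11) and Jdp2 (0.97), and WT changes of these genes were 1.69, 1.09 and 0.73.

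Of 31 targets of ATF4 in amino acid supply and stress 6 rose and 11 fell in S63del (median -0.15), while 9 rose and 5 fell in WT (median 0.16). The S63del change lay below the WT change in 24 of 31. Asns, which makes asparagine, read 9.40 and 9.37 at P5 and 8.86 and 8.54 at 4 months in S63del, and 6.73 and 6.76 then 8.65 and 8.45 in WT. It fell in the mutant (-0.69 ± 0.15) and rose in WT (1.81), a difference of -2.50 (adjusted p = 6.51e-06).

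Chac1, which degrades glutathione, fell from 6.80 and 6.74 to 5.35 and 5.48 in S63del and rose in WT from 4.90 and 4.75 to 5.57 and 5.31, so that the 4-month arrays of the genotypes overlapped. Among the 11 that fell were Psph (-1.18) and Psat1 (-1.15) of serine synthesis and Mthfd2 (-0.88) and Shmt2 (-0.66) of folate metabolism, chosen after their values were seen. Aldh18a1 of proline synthesis fell by 1.13 and Bcat1 of branched-chain amino acid turnover by 1.60. The amino acid carriers Slc1a5 (2.83) and Slc7a5 (1.47) rose, and Slc1a5 rose by 2.53 in WT.

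The cytosolic aminoacyl-tRNA synthetases, which load tRNAs and include several ATF4 targets, fell nearly throughout: 15 of 18 fell and 0 rose in S63del, with a median of -0.67 beside 10 falls, 0 rises and -0.45 in WT. The largest fall was that of Farsa, from 7.94 and 7.89 to 6.25 and 6.16 (-1.71 ± 0.18). Sars fell by 1.28 and Hars by 1.27. The S63del change lay below the WT change in 18 of 18, and none of the 18 differences passed.

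Of 15 genes listed here as linked to CHOP 6 fell and 2 rose, with a median of 0.05. Car6, a carbonic anhydrase, stood out by its level at P5 alone. It read 5.90 and 5.61 in S63del at P5, 3.73 and 3.61 at 4 months, and 3.60, 3.55, 3.50 and 3.30 on the WT arrays. Its fall was 4.24-fold (-2.08 ± 0.27) and differed from WT by -1.90 (adjusted p = 0.0475). It is the gene of the 35 that lost its call without the 2 arrays that lay against their labels (adjusted p = 0.0582). The call was lost in 11 of 18 other settings, the leaving out of any single S63del or WT array among them, with adjusted p from 0.000154 to 0.231. Bcl2l11 (BIM), a killer protein of the BCL2 family, fell by 1.64 in S63del and 1.75 in WT. Dnajc12 fell by 0.76, and Trib3, an inhibitor of AKT and of ATF4, by 0.55. Gadd45a (0.57) and Sqstm1 (0.05) did not pass.

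The motif TGATGNAA, the letters of the composite element bound by ATF4 with C/EBP partners, was searched on both strands and stands in 4.51% of the 27025 genes' promoters. It was in 9 of the 26 ATF4 target promoters of the table, and 3 of those 9 genes and 7 of the other 17 fell. Among the sensors and transcription factors 2 of 18 held it, Atf3, which fell, and Jdp2, which rose, and 4 of the other 16 fell. The stretches of 3 genes whose courses differed from WT are shown, with the motif in capitals, on the opposite strand in Chac1 and Atf3.
Chac1 (chr2:119351029-119351076, + strand): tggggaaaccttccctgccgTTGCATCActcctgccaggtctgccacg
Asns (chr6:7693210-7693252, - strand): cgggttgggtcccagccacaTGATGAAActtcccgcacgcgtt
Atf3 (chr1:191183416-191183463, - strand): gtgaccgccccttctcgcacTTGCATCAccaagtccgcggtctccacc

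Other genes with the lower course were Tubb3, a tubulin of neurons, which fell from 7.37 and 6.77 to 4.65 and 4.84 in S63del while WT read 5.10 and 4.55 then 4.82 and 4.38. Tnfrsf12a, the receptor for TWEAK, fell by 2.57 in S63del and 1.06 in WT, and Lrrtm2, an adhesion protein of synapses, fell by 1.28 in S63del. Mocos and Fam241b rose in both genotypes, by 0.61 and 0.68 in S63del and by 2.02 and 1.83 in WT. Ccn1, a matrix protein of immediate early type, read 9.41 and 9.04 then 9.33 and 9.25 in S63del, against 7.83 and 7.87 then 9.41 and 9.25 in WT.

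Of 25 immediate early genes, which respond within minutes to stimulation and to tissue handling, 6 rose and 7 fell in S63del (median -0.07) and 9 rose and 1 fell in WT (median 0.06). The S63del change lay below the WT change in 22 of 25. Fos fell from 10.25 and 9.80 to 8.85 and 8.85 in S63del, and Ccn2 rose by 2.34. The mean level of 28 skeletal muscle genes differed between arrays of 1 group: it was 7.80 and 8.27 then 8.34 and 6.74 in S63del, and 7.50 and 9.02 then 6.19 and 6.56 in WT. The part of handling or of muscle in the differences from WT was not tested.

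The genes with the higher course began low in S63del nerve at P5. Chst2, a sulphotransferase of carbohydrates, read 6.28 and 5.92 at P5 and 9.02 and 9.27 at 4 months in S63del, an 8.27-fold rise (3.05 ± 0.17, adjusted p = 4.26e-10). In WT it read 8.30 and 8.05 then 8.78 and 9.01. The courses differed by 2.33 ± 0.24 (adjusted p = 8.27e-05), and both mutant arrays lay below both WT arrays at P5 and above them at 4 months.

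Chdh, a mitochondrial enzyme of choline oxidation, rose 12.2-fold in S63del, from 5.66 and 5.39 to 9.12 and 9.16, and from 7.44 and 7.41 to 8.95 and 9.39 in WT. Nsg2 (3.10), the matrix protein Vit (3.23) and Sema5a (3.10), a semaphorin, also rose by over 3 on the log2 scale in S63del, beside WT rises of 1.27, 1.49 and 1.53. Kcnk1, a potassium leak channel, rose in S63del from 9.34 and 9.16 to 10.56 and 10.79, and stood at 10.81, 10.79, 10.64 and 10.87 on the WT arrays.

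S100b, a calcium-binding protein that marks Schwann cells, rose from 9.92 and 9.96 to 12.03 and 11.99 in S63del, a 4.2-fold rise, and from 11.10 and 10.91 to 11.91 and 11.98 in WT. The courses differed by 1.12 (adjusted p = 0.00554), and all 4 arrays of the later age lay between 11.91 and 12.03. H2-DMa, which loads peptides on class II molecules, rose by 2.87 in S63del and 1.46 in WT. Sialyltransferases were among the 18: St8sia5 rose by 1.99 and St6gal1 by 0.75. The St6gal1 rise turned to -0.36 when its probe sets were averaged. Efhd1, a mitochondrial calcium-binding protein, rose by 0.60 in S63del and fell by 0.55 in WT.

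Called in opposite directions in the 2 genotypes were 9 genes. Asns, Chac1, Fbxo2, Hspa1a, Hspa1b and Hspb1 fell in S63del and rose in WT. Efhd1, Hmgcs1 and Tm6sf1 rose in S63del and fell in WT. For 7 of the 9 the difference of courses passed, and for Hmgcs1 (adjusted p = 0.0507) and Tm6sf1 (adjusted p = 0.102) it did not.

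At 4 months itself no gene passed between S63del and WT in the limma fit of all 24 arrays (0 called, 0.0%). An unadjusted p under 0.05 was reached there by 577 genes (4.66%). At P5 298 genes (2.4%) were called, 142 higher (1.15%) and 156 lower (1.26%) in S63del. Quantile normalization, averaged probe sets, every probe set on its own, the dim filter, only the arrays compared, the 16 arrays, array weights, the trend and the replicate block gave 0 at 4 months as well. By contrast 35 genes were called without the 2 arrays that lay against their labels and 39 without CHOP null P28 replicate 2 and WT 4 months replicate 1. It was 12 without S63del 4 months replicate 1, 2 and 8 without WT 4 months replicate 1 and 2, and 0 without S63del 4 months replicate 2. The P5 count of 298 fell to between 119 and 149 when any of its 4 arrays was left out. The fit without the 2 arrays put 20 genes higher and 15 lower in S63del. Among them were Cxcl10 (2.22 ± 0.18, adjusted p = 5.5e-05), an interferon-induced chemokine, Nqo1 (1.68), a quinone reductase controlled by NRF2, and Lgals3 (0.93), a galectin of macrophages and repair cells. Lower were Aldoc (-1.86), Elovl4 (-1.63) and Igf2 (-0.91). With all 24 arrays some lists still lay to one side of WT at 4 months, by values that were not tested as sets. All 19 cholesterol genes lay below WT (median -0.33). Above WT lay 28 of 29 macrophage genes, 26 of 29 ER chaperones and 34 of 38 cell cycle genes, beside 6036 of 12393 genes in all. Myelin genes were split, with 8 above and 10 below. These lists were picked after their values were seen.

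Turning to maturation, the transcription factors of Schwann cell stages gave 9 falls and 3 rises among 23, with a median of -0.22 beside -0.35 in WT. Pou3f1 (OCT6), the factor of the promyelin stage, fell from 11.26 and 11.14 to 9.92 and 9.96 (-1.26 ± 0.35), beside -1.87 in WT. Its relative Pou3f2 fell by 2.04, and Id2, Sox4, Sox11, Sox2 and Jun, which hold cells in an immature state, fell by 1.87, 1.82, 1.84, 0.99 and 0.74. Zeb2, which promotes differentiation, also fell (-2.18). Egr2 (KROX20), the driver of myelin genes, read 11.55 and 11.55 at P5 and 11.57 and 11.41 at 4 months and did not pass.

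Of 26 genes of immature and repair Schwann cells 11 fell and 3 rose (median -0.19). Tnc, a matrix protein of developing nerve, fell 5.9-fold, from 9.28 and 9.32 to 6.74 and 6.74. Ngfr, the p75 neurotrophin receptor of immature cells, fell from 10.13 and 9.96 to 9.01 and 8.87 (-1.11 ± 0.20), Gap43 by 1.56 and Nrcam by 1.61. Gfap (1.26), Lif (1.17) and Nes (1.00) rose. Sox10 and Jun passed with all arrays and were each lost when a single array was left out.

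Myelin proteins and enzymes of myelin galactolipids changed in both directions: 6 of 18 rose, 4 fell and the median was 0.18, beside 3 rises, 7 falls and -0.13 in WT. Pmp22 read 13.97 and 13.96 at P5 and 14.15 and 14.15 at 4 months and did not pass. Mbp rose from 13.75 and 13.66 to 14.08 and 14.07 (0.37 ± 0.09), but the mean of its 8 probe sets fell by 0.39 (adjusted p = 0.0372), so its direction depends on the probe set. Mpzl2, a relative of P0, rose 16.2-fold, from 5.36 and 4.56 to 8.99 and 8.97, beside 3.38 on the log2 scale in WT.

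Ndrg1, mutated in a recessive form of the disease, rose by 1.69 in S63del and 1.07 in WT. Fa2h, which makes hydroxylated myelin lipids, rose by 0.91. Gjc3, connexin 29 of the inner myelin membrane, fell 9.37-fold, from 9.55 and 9.47 to 6.13 and 6.44. Mag, the adhesion protein that faces the axon, fell by 1.23 and Gal3st1, which sulphates galactolipids, by 1.27. In 17 of the 18 the S63del change was above that of WT, beside 6337 of 12393 genes in all. At P5 all 18 lay below WT in S63del nerve, with a median of -0.43, and 6 of them were called.

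Among enzymes of cholesterol synthesis, a supply on which myelin growth depends, 10 of 19 fell and 1 rose in S63del with a median of -0.46, and 17 fell and 0 rose in WT with a median of -1.28. The S63del change lay above the WT change in 19 of 19, beside 6337 of 12393 genes in all, and the difference passed for Tm7sf2 and Dhcr7. Tm7sf2, a sterol reductase, fell from 8.22 and 8.19 to 7.21 and 7.38 in S63del and from 10.27 and 10.15 to 7.79 and 8.005 in WT. Dhcr7, the last reductase of the path, read 8.27 and 8.15 then 7.92 and 7.93 in S63del, and fell from 9.46 and 9.43 to 8.24 and 8.08 in WT. Both started lower in the mutant at P5. So did the list: at P5 16 of its 19 genes were called lower than WT and 0 higher, with a median of -1.19.

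Fdps fell by 1.10 in S63del and 1.85 in WT, Mvd by 0.88 and 2.004, and Mvk by 0.88 and 1.66. Lss read 8.28 and 8.02 then 8.18 and 8.15 in S63del. Hmgcs1 rose slightly in S63del (0.34 ± 0.12, adjusted p = 0.0334), a call lost under quantile normalization. Without the 2 arrays that lay against their labels the difference of courses also passed for Mvd (1.13), Nsdhl (1.13), Hmgcs1 (0.84) and Fdft1 (0.80).

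Fatty acid and sphingolipid genes gave 15 rises and 4 falls among 26, with a median of 0.63 beside 0.09 in WT. Thrsp, a regulator of lipogenesis, rose from 6.20 and 5.11 to 11.48 and 10.70. Scd1, the stearoyl desaturase that adipose tissue shares with Schwann cells, rose from 11.10 and 10.28 to 13.64 and 13.54, Dgat2 by 2.88, Me1 by 2.54 and Fasn by 1.61. Scd2 rose by 0.48 on its brightest probe set, and the mean of its probe sets fell by 1.31. Fads2 fell by 1.48, Acaca by 0.89 and Ugcg by 0.74.

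Most adipocyte markers rose as well: 15 of 17 rose and 0 fell, with a median of 2.42 and 1.82 in WT. Their mean level was 7.50 and 7.25 at P5 and 9.78 and 9.72 at 4 months in S63del. Adipoq, the hormone adiponectin, went from 9.68 and 9.23 to 13.19 and 12.95. Cidec of fat droplets rose 16.9-fold and Lep, the hormone leptin, from 5.05 and 4.92 to 8.61 and 10.35. Ucp1 (-0.04) and Cidea (0.08) of brown fat did not pass. The part of fat tissue in the rise of fatty acid genes was not tested.

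**Figure D4:**
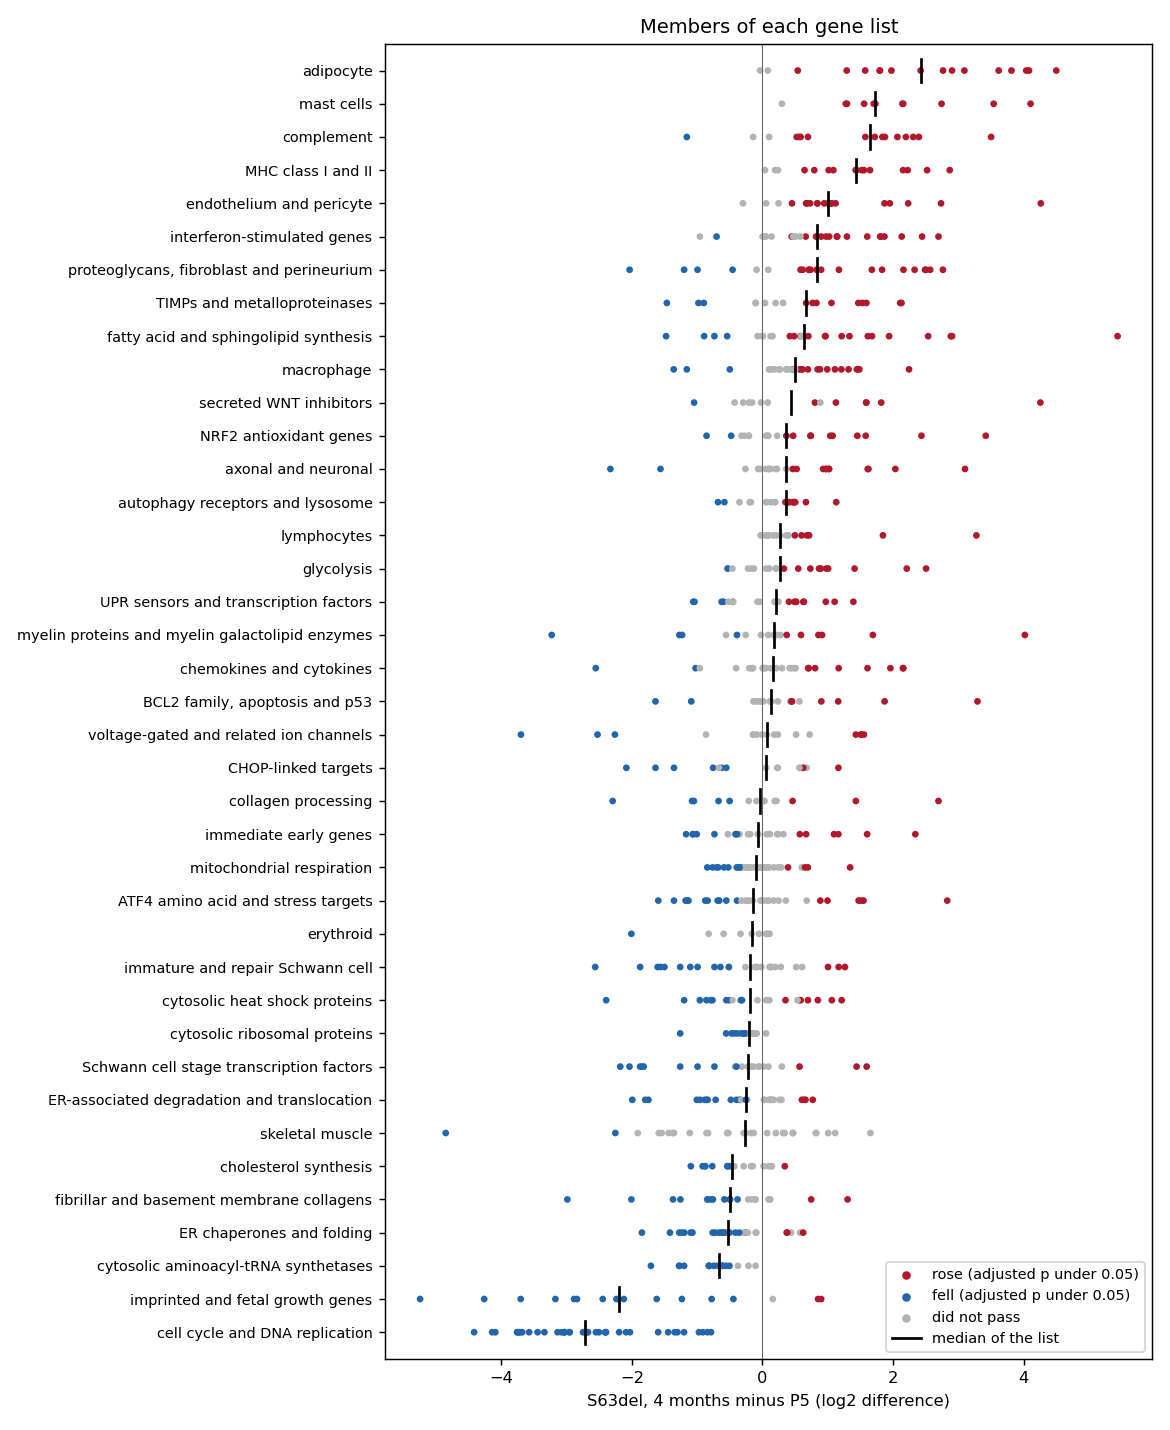
Log2 difference of 4 months minus P5 in S63del nerve (horizontal axis) for each measured member of the 39 gene lists (rows, ordered by median), red where the gene rose, blue where it fell and grey where it did not pass, with a black bar at the list's median. Cell cycle genes (median -2.72) and imprinted and fetal growth genes (-2.20) lie at the low end and adipocyte markers (2.42) at the high end.

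All measured cell cycle and DNA replication genes fell: 38 of 38 in S63del with a median of -2.72, and 38 of 38 in WT with a median of -2.77. Mki67, the proliferation marker, read 10.36 and 10.39 at P5 and 6.28 and 7.01 at 4 months. Cdk1, the mitotic kinase, went from 10.15 and 10.52 to 5.999 and 6.49, a 17.1-fold fall (-4.09 ± 0.22, adjusted p = 3.12e-10). Birc5 (survivin) fell 21.3-fold, Bub1 of the spindle checkpoint 17.6-fold, Rrm2 of nucleotide supply 13.5-fold and Top2a, which untangles chromosomes, 13.5-fold. The smallest falls of the list were those of Ccne1 (-0.79) and Pcna (-0.84). None of the 38 differed from WT in its course.

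Promoters of cell cycle genes are known for paired CCAAT boxes and a CHR element, searched here as CCAAT and TTTGAA on both strands. CCAAT stood in 26 of the 31 promoters of the list in the table, beside 41.1% of all genes, and TTTGAA in 17 of 31, beside 20.2%. All 31 fell, with or without the letters. The capitals mark, for each gene, the CCAAT (here as ATTGG) and the CHR match nearest to the start site. A CCAAT at the start of the Top2a stretch is left in lower case.
Cdk1 (chr10:69352913-69352980, - strand): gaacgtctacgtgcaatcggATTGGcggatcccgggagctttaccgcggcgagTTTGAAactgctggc
Top2a (chr11:99024190-99024267, - strand): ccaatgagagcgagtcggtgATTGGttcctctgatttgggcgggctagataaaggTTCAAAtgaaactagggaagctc

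Imprinted and fetal growth genes fell in 14 of 17 cases and 2 rose, with a median of -2.20 in S63del and -2.20 in WT. Dlk1, a paternally expressed inhibitor of differentiation, went from 11.18 and 11.13 to 5.86 and 5.96, a 37.9-fold fall (-5.24 ± 0.17). Igf2, the fetal growth factor, fell 19.2-fold, from 12.76 and 12.75 to 8.56 and 8.43, and its mRNA-binding protein Igf2bp3 by 3.70. Hmga2 (-3.17), Mest (-2.88), Cdkn1c (-2.84), Peg3 (-2.45) and Plagl1 (-2.20) also fell. The rises were Dcn (0.90) and Sgce (0.85).

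**Figure D5:**
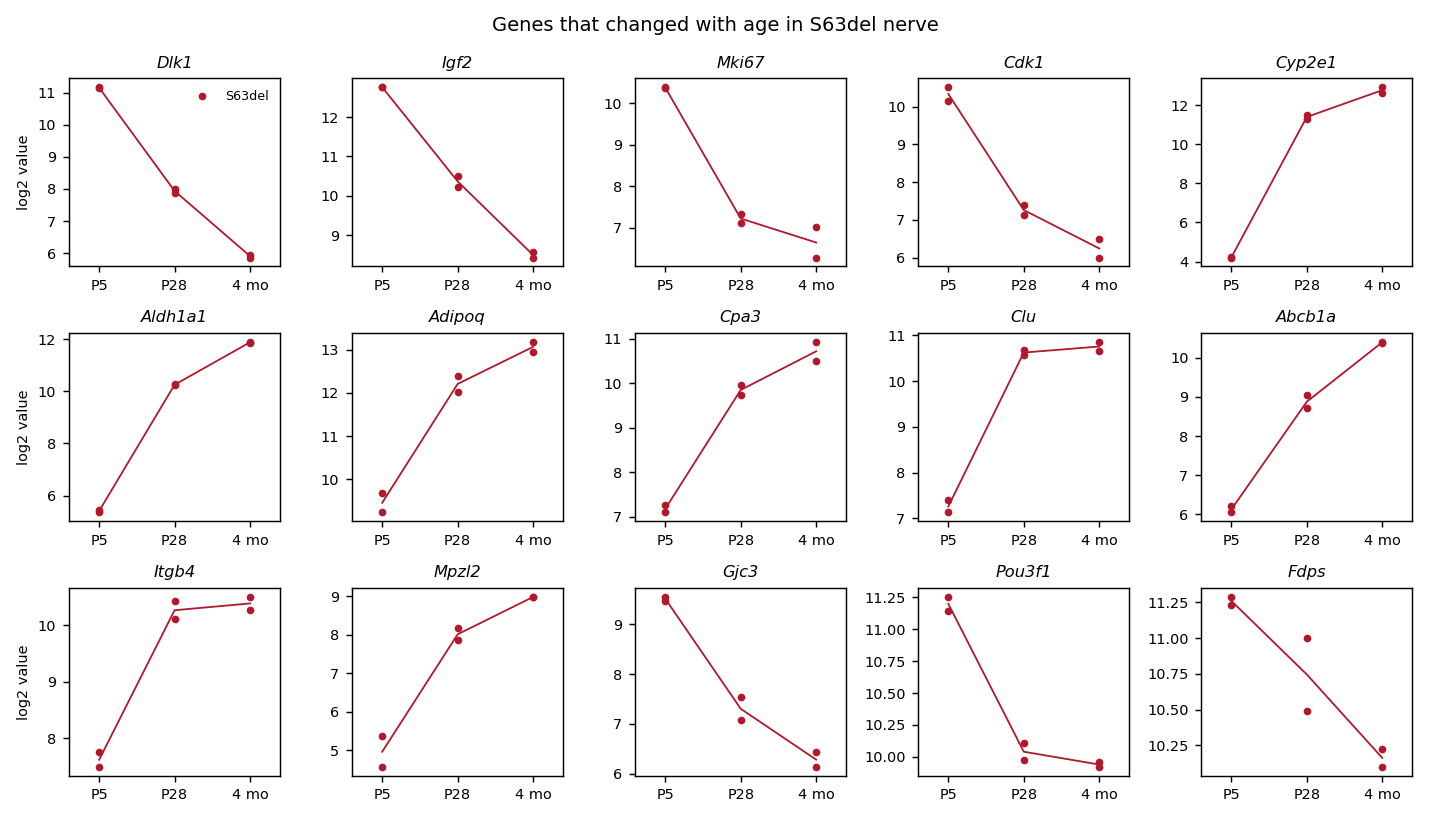
Log2 value on each S63del array (points) and group mean (lines) at P5, P28 and 4 months for 15 genes of growth, lipid, vessel, immune and myelin lists. Dlk1, Igf2, Mki67 and Cdk1 fall by over 3 from P5 to 4 months, Cyp2e1, Aldh1a1 and Abcb1a climb by over 4.

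The largest falls outside these lists were those of Nrk, a kinase of embryonic tissues (10.84 and 10.71 to 4.26 and 4.01, 99.9-fold), Agtr2, the angiotensin receptor of fetal connective tissue (70.9-fold), and Fbn2, the fetal fibrillin (36.7-fold). Myh8, perinatal myosin, fell from 7.68 and 9.36 to 3.84 and 3.49, with P5 arrays far apart. Depdc1a, Bex1, Pclaf and Kera completed the 15 largest, with falls of 15.9-fold to 19.5-fold.

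The largest rise was that of Cyp2e1, a cytochrome P450 of xenobiotic metabolism, from 4.23 and 4.20 to 12.93 and 12.60 (8.55 ± 0.14, adjusted p = 5.05e-17). Inmt, a methyltransferase of amines, rose from 5.11 and 4.43 to 11.49 and 11.36, and Aldh1a1, which makes retinoic acid, from 5.35 and 5.47 to 11.86 and 11.90. Serpina1b (5.83) and Amy1 (5.50) belong to families of near-identical copies that probe sets may not separate. Cpxm2, Tmem45b, Thrsp, Gpm6a, Cyp2f2, Ces1d, Lep, Gsta3, Orm1 and Pon1 followed, at 4.32 to 5.46. WT rises of the 15 lay between 3.83 and 8.62, and none of the 15 differed in its course.

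Of 20 fibrillar and basement membrane collagens 12 fell and 2 rose (median -0.50; -0.59 in WT). Col1a1 fell from 13.28 and 13.14 to 12.24 and 12.49, Col3a1 by 0.38, and Col9a1 by 2.99. Col15a1, of the zone between basement membrane and fibrils, rose by 1.30. Plod2, which hydroxylates collagen lysines, fell 4.9-fold, and Lox, which cross-links collagen, rose by 1.43. Calls of Col1a1 and Col3a1 were lost under averaging of probe sets and on leaving out an array, respectively.

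Among 23 genes of proteoglycans, fibroblasts and perineurium 17 rose and 4 fell (median 0.83; 0.63 in WT). Prelp (2.57), Omd (2.49) and Fmod (2.16), leucine-rich proteoglycans, rose, and Dcn rose from 13.25 and 13.17 to 14.11 and 14.11. Slc2a1 (GLUT1), Cldn1 and Itgb4, listed here with perineurium, rose by 2.51, 1.83 and 2.76. The sheath had been removed per the labels' protocols, and which cells of the nerve held these transcripts was not tested. Eln, elastin, fell by 2.03. Of 17 TIMPs and metalloproteinases 9 rose and 3 fell: Timp4 rose by 2.11 and Timp3 by 0.67, and Adam12 fell by 1.46. Timp2 (1.53) had probe sets in both directions, with a mean change of -0.12.

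Most vessel genes rose with age: 18 of 21 endothelial and pericyte genes rose and 0 fell, with a median of 1.00, beside 13 rises and 0.585 in WT. Abcb1a, the efflux pump of blood barriers, rose 19.2-fold, from 6.05 and 6.21 to 10.38 and 10.40. Slco1c1, a carrier of thyroid hormone at such barriers, rose by 2.73 and Vwf by 2.23. Cldn5 of tight junctions rose by 1.04, Cdh5 by 1.12 and Myh11 of smooth muscle by 1.95. In 19 of 21 the S63del change was above that of WT, and none of these differences passed.

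Immune genes were higher at 4 months in several lists. All 16 class I and II antigen presentation genes lay above 0, and 13 rose (median 1.44; 1.36 in WT): H2-Aa by 2.52, Cd74 by 2.22 and H2-D1 by 1.43. Of 27 interferon-stimulated genes 17 rose and 1 fell (median 0.83; 0.93 in WT), with Ifit3 at 2.70 and Oasl2 at 2.44. Cxcl10 read 9.98 and 9.68 then 9.04 and 8.70 and did not pass. Of 16 complement genes 13 rose and 1 fell (median 1.65): Clu, a soluble inhibitor of lysis, from 7.39 and 7.13 to 10.86 and 10.66, C2 by 2.31 and Cfi by 2.40, while C1qa fell by 1.16.

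Mast cell genes rose in 10 of 11 cases (median 1.73; 1.68 in WT). Mcpt4, a mast cell chymase, rose from 5.89 and 6.02 to 10.19 and 9.94 and Cpa3, a carboxypeptidase of the same granules, rose 11.6-fold. Of 29 macrophage genes 15 rose and 3 fell (median 0.50; 0.30 in WT). Cd163 of resident macrophages rose by 2.24, Lyz2 by 1.47 and Cd68 from 8.07 and 8.03 to 8.68 and 9.18, and Cx3cr1 fell by 1.36. Adgre1, a defining marker, did not pass (0.19 ± 0.16). Lgals3 did not pass in S63del (0.50 ± 0.27) and rose by 2.24 in WT. With all 24 arrays the difference of courses passed for none of the 29 macrophage genes. That of Lgals3 (-1.73) was called only in a fit such as the one without the 2 arrays that lay against their labels.

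Of 18 lymphocyte genes 6 rose, led by Jchain (3.28) and Ighm (1.84) of plasma cells, whose 4-month arrays were apart (6.41 and 7.44 for Jchain). Among 28 chemokines and cytokines 8 rose and 2 fell. Il33, an alarmin, rose by 2.15, Cxcl13 by 2.16 and Ccl9 by 1.61. Cxcl14 fell 5.87-fold, from 10.45 and 10.29 to 7.75 and 7.88, beside -0.82 in WT. The difference of courses passed for none of the 28 genes. Ccl2, which draws monocytes, fell from 8.87 and 9.19 to 7.83 and 8.19.

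Transcripts of axons and neurons, which reach nerve RNA in small amounts, rose in 11 of 23 cases and fell in 2 (median 0.37; 0.71 in WT). Sncg rose by 1.62, Stmn2 by 1.61 and Snap25 from 3.58 and 3.32 to 5.42 and 5.54. Nefl did not pass (0.20). Among 17 ion channel genes 4 rose and 3 fell, close to the shares over all genes (22.7% higher, 17.2% lower). The glial potassium channel Kcnj10 fell 13-fold, from 10.71 and 10.63 to 6.96 and 6.99. Kcna1 fell by 2.53 and Kcna6 by 2.26, and Clcn2 rose by 1.51.

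Antioxidant genes under NRF2 gave 10 rises and 2 falls among 21 (median 0.37; 0.29 in WT). Nqo1 rose from 6.61 and 6.78 to 10.13 and 10.09, and Gstm1 by 2.43. Glycolytic genes gave 10 rises and 1 fall among 20 (median 0.27), with Hk1 at 1.41 and Pfkfb3 at 2.21, and Aldoc did not pass (0.21 ± 0.39). Of 40 genes of mitochondrial respiration 4 rose and 10 fell (median -0.11), and of 24 ribosomal protein genes 0 rose and 9 fell (median -0.20). Among 21 genes of autophagy and lysosomes 9 rose and 2 fell, with Gabarapl1 at 1.13.

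In the apoptosis and p53 list 6 of 20 rose and 2 fell, beside 22.7% and 17.2% of all genes. Perp rose from 5.73 and 5.36 to 8.78 and 8.90 and the death receptor Fas by 1.87, and Bak1 fell by 1.09. Secreted WNT inhibitors gave 6 rises and 1 fall among 14, with Frzb up 19.1-fold and Sfrp2 by 1.82. Wif1 read 3.84 and 3.44 then 3.93 and 5.13 and did not pass. Of 9 erythroid genes Slc4a1 alone fell (-2.01), and 0 rose. Of 28 muscle genes Myh8 and Myh3, the perinatal and embryonic myosins, fell and 0 rose.

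The legs of the course, which share arrays with the whole interval, are given for orientation. Between P5 and P28 S63del nerve had 3647 rises (29.4%) and 2961 falls (23.9%), together 53.3% of genes. Between P28 and 4 months it had 3132 rises (25.3%) and 2572 falls (20.8%), together 46.0%. Leaving out single arrays brought the latter count of 5704 down to between 3694 and 4462, the lowest without S63del P28 replicate 2. Both legs carry the narrower scale of the P28 arrays, so their counts and medians hold that difference as well as age. Under quantile normalization 5535 genes were called on the early leg, beside 6608, and 4569 on the late one, beside 5704. Cell cycle genes had medians of -2.37 on the early leg and -0.38 on the late one, heat shock genes -0.30 and 0.19, and cholesterol genes 0.22 and -0.58. ER chaperones had medians of -0.32 and -0.26. Derl3 read 8.21 and 7.74 and Sdf2l1 8.93 and 8.96 at P28. Hspa1a (8.56 and 8.69), Tubb3 (4.86 and 5.20) and Car6 (3.75 and 3.98) had at P28 the level they had at 4 months or close to it.

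Mutant nerve without CHOP is given beside these courses, but it cannot settle how far they need CHOP. At 4 months 1 of its 2 arrays lay against its label, and leaving that array out leaves 1. In simulated data the difference of courses between S63del and WT recovered 0% of changes of 0.5 and 54.8% of changes of 1 (log2). That simulation gave each gene the same spread in all groups and had no array against its label. The difference between S63del/CHOP null and S63del was not simulated. A lack of calls below is therefore no sign of equal courses. Ddit3 itself read 6.93 and 6.82 at P5 and 6.70 and 6.76 at 4 months on the S63del/CHOP null arrays, below every S63del and WT value. The S63del/CHOP null course had 2665 rises (21.5%) and 2196 falls (17.7%), together 39.2%, and 2142 rises and 1563 falls without the 2 arrays that lay against their labels, which leaves 1 array of this group at 4 months, assumed to vary like the other groups. Its difference from the S63del course passed for no gene in the limma fit (0 called, 0.0%), with 111 genes (0.896%) at an unadjusted p under 0.05. It was 0 without the 2 arrays that lay against their labels, and other settings called 0 to 2 genes: 2 without S63del/CHOP null P5 replicate 1, and 1 without S63del/CHOP null P5 replicate 2, S63del/CHOP null 4 months replicate 2, S63del P5 replicate 2 or S63del 4 months replicate 1. Car6 was called with quantile normalization, only the arrays compared, the 16 arrays of P5 and 4 months, array weights (with Mgl2) and without CHOP null P28 replicate 2 and WT 4 months replicate 1, and it is singled out after its values were seen.

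Car6 read 3.44 and 3.58 at P5 and 3.51 and 3.73 at 4 months without CHOP. The high P5 level of S63del nerve was missing there, and the difference of courses of Car6 was 2.19. Car6 belongs to the list of genes linked to CHOP, which was chosen with earlier results of these data known. Its low level here is therefore no independent support for that link. Hspa1a went from 11.27 and 11.05 to 8.16 and 9.004 without CHOP, Derl3 from 8.90 and 8.91 to 6.36 and 6.65, and Asns from 9.76 and 9.63 to 8.83 and 8.73. Chac1 went from 7.68 and 7.22 to 5.47 and 5.91, and its P5 arrays lay above both S63del arrays. The differences from S63del of these 4 were -0.19, -0.41, -0.23 and -0.41 and did not pass. The first of each 4-month pair without CHOP is the array that lay against its label. Without the 2 such arrays the differences were 0.24, -0.26, -0.28 and -0.19, none of them called, so that of Hspa1a changed sign, and that of Car6 was 2.30 and was not called either.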

How the data were processed

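RNA of sciatic nerve freed of the perineurial sheath was hybridised to 24 Affymetrix arrays, 2 for each of 12 groups of genotype and age. The authors deposited log2 values for 22690 probe sets. Normalization and software: not given in the sources used here. No further scaling was applied, and the number of arrays sets the precision.

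Of the probe sets 64 are controls, 20380 name 1 gene, 691 several and 1555 none, and those naming 1 gene were kept. Gene IDs of 20351 matched RefSeq (GRCm38.p6). For 4956 genes with several probe sets the brightest by its mean over the arrays was used, which left 12393 genes. A mean for each group was fitted to all 24 arrays in limma 3.58.1, with lmFit and eBayes, under R 4.3.3 (statmod 1.5.0 for blocks), leaving 12 residual degrees of freedom. P-values were adjusted by Benjamini and Hochberg across the genes and called under 0.05. The fit was tested on simulated data. P-values measure only the spread between these samples.

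Groups follow the labels. The members and lists were chosen with earlier results of these data known. The 39 lists hold 813 measured genes and are given by counts and medians, without a set test. Genes were named by a rule: the 15 largest rises and falls among called genes whose arrays do not overlap, the 3 smallest p of each list, the 10 largest differences of courses each way and a fixed set. Further list members given as examples, and further genes called in the difference of courses, were chosen after their values were seen. Alternatives were quantile normalization, averaging a gene's probe sets, leaving out genes under the 40th percentile of brightness, testing every probe set on its own, only the arrays compared, the 16 arrays of P5 and 4 months, array weights, an intensity trend, the replicate number as a block, and leaving out arrays. The fits without the arrays that lay against their labels and with crossed replicate numbers were added after seeing the data. Some genes of the fixed set are not analysed here.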

Additional observations from a re-analysis of the deposited data

Results flagged for a closer look

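The change from P5 to 4 months in S63del minus that in WT passed the test for 22 genes that the text singles out. It was lowest for Hspa1a (-4.80), Hspb1 (-3.53), Fbxo2 (-3.46) and Hspa1b (-3.33). Asns (-2.50), Tubb3 (-2.11), Derl3 (-2.02), Chac1 (-1.97), Car6 (-1.90), Sdf2l1 (-1.73), Ddit3 (-1.50) and Atf3 (-1.39) also had the lower course in S63del. It was highest for Chst2 (2.33), Chdh (1.86), Nsg2 (1.84) and Vit (1.73). Serpinb6b (1.63), Sema5a (1.57), Kcnk1 (1.48), H2-DMa (1.41), Tm7sf2 (1.40) and Art4 (1.36) had the higher course as well. Car6 was not called without the 2 arrays that lay against their labels (adjusted p = 0.0582, from 0.000154 to 0.231 over 18 settings). Each was singled out because the difference between the courses was itself tested and passed. For Ddit3 the WT 4-month arrays were apart (9.09 and 8.29), and the lower one lay below every S63del value.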

How the results depend on the processing

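With 2 arrays a group, small differences could be missed, and calls rest on a spread shared by all groups. The 4937 calls of the S63del course became 7964 with every probe set on its own, and between 4098 and 6885 under the settings other than leaving out 1 array, which gave 3735 to 4017. Of the 4937 genes, 4450 were shared with quantile normalization, 4334 with averaged probe sets and 3860 of 3860 tested without dim genes. Averaging probe sets reversed Mbp (-0.39), Scd2 (-1.31), St6gal1 (-0.36) and Timp2 (-0.12). Of 175 named called genes 14 lost the call under some setting, 7 of them under settings other than leaving out 1 array. Of the 35 called differences of courses 26 did, 13 of them so.

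The 35 differences from the WT course became 61 with only the arrays compared, 55 with the 16 arrays of P5 and 4 months, 59 without CHOP null P28 replicate 2 and WT 4 months replicate 1, 77 with array weights, 56 without the arrays that lay against their labels, and 13 to 60 on leaving out an array. In the same order S63del against WT at P5 (298) gave 580, 564, 572 and 1033, and 119 to 149 on leaving out an array. At 4 months (0) it gave 39 without the first pair, 35 without the second, and 0 to 12. The S63del/CHOP null difference (0) gave 1 with quantile normalization, with only the arrays compared, with the 16 arrays and without the first pair, 2 with array weights, and 0 to 2 on leaving out an array. The WT course (4557) gave 7287 with every probe set and 3551 to 4236 on leaving out an array. The P28 legs gave 10541 and 9179 with every probe set, 4399 for the early leg without dim genes, and 4757 to 5521 and 3694 to 4462 on leaving out an array. The cause was not tested, apart from the number of features where every probe set or fewer genes were tested.

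The replicate numbers did not pair the arrays: deviations of same-numbered S63del arrays at P5 and 4 months correlated at -0.14. With the number as a block 4873 genes were called in the S63del course and 32 in the difference from WT. A crossed pairing, added after seeing the data, gave 4860 in the course.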
